A study of Homo sapiens with 8 samples.

Results

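The comparison set the 2 libraries labelled MYC_Zab against the 2 labelled MYC, which are 4 of the 8 libraries of the series. The libraries were chosen by their genotype label. The MYC_Zab label stands for MYC overexpression together with Zab, and the MYC label for MYC overexpression alone. The other 4 libraries, 2 labelled Zab and 2 labelled WT, entered the same fit and give the matching difference without MYC in the label. All came from U2OS, a human osteosarcoma cell line, and were made by TT-seq, which reads RNA that took up the base analogue 4-thiouridine while it was being made. MYC, Z-DNA and FACT, a histone chaperone, stand in the title of the series, whose design text spells Zab as Zαβ. The labels do not say what the Zab construct holds, how MYC or Zab was expressed, or whether a group is 1 clone. They do not say that the replicates came from separate cultures either, and the p-values then cover no more than library-to-library spread, possibly only technical spread.

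As background, MYC is a transcription factor that binds DNA as a dimer with MAX, most tightly at a short sequence called the E-box. In growing cells it is known for genes of ribosome building, nucleotide and lipid synthesis and glycolysis. Z-DNA is a double helix that winds to the left, which underwound DNA behind a moving RNA polymerase can take up. Zα and Zβ are domains of the RNA-editing enzyme made by ADAR. The Zα domain binds Z-DNA and Z-RNA. FACT, a dimer of SUPT16H and SSRP1, takes apart and rebuilds nucleosomes as polymerases pass.

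The gene named in both labels was high under the MYC label but not under the MYC_Zab label. MYC was at 752 and 772 CPM (reads scaled to library size, TMM method) in the libraries labelled MYC_Zab, against 6578 and 6606 CPM in those labelled MYC. The label of the first pair states overexpression, yet its level was near the means of 966 CPM in the libraries labelled Zab and 764 CPM in WT. MYC was thus 8.65-fold higher in the libraries labelled MYC, a log2 change of -3.11 ± 0.041 (SE) for MYC_Zab over MYC. ADAR had 32282 and 32341 CPM in the libraries labelled MYC_Zab, against 445 and 464 CPM in those labelled MYC, 71.1-fold apart. Its means were 543 CPM in Zab and 33906 CPM in WT, so the libraries labelled Zab were low and those labelled WT were high. ADAR took 3.42% and 3.43% of all reads in the libraries labelled MYC_Zab, against 0.0444% and 0.0461% in those labelled MYC. Every direction below is therefore that of the libraries labelled MYC_Zab relative to the libraries labelled MYC, and not of a genotype that the data bear out.

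**Figure D1:**
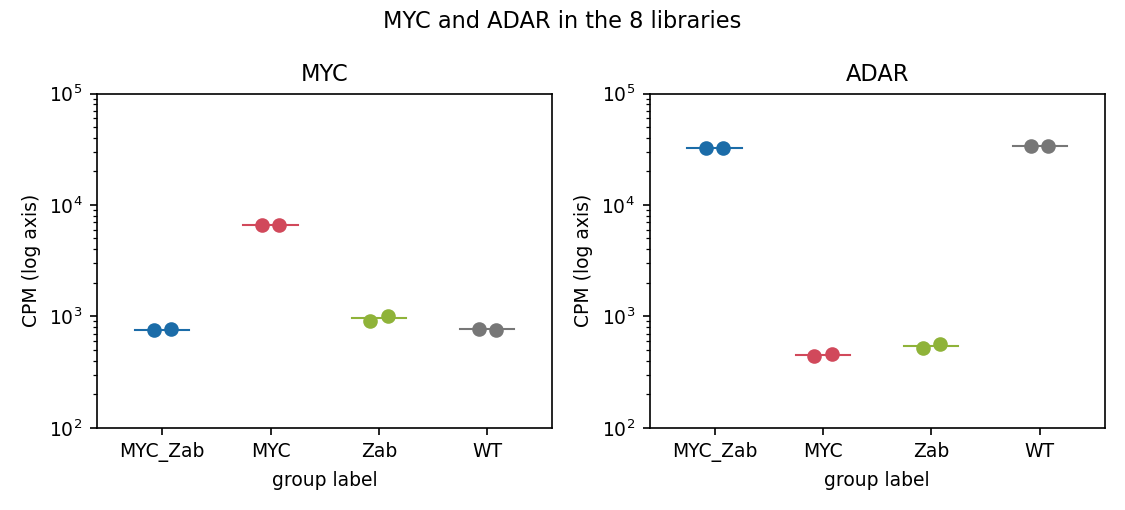
CPM of MYC (left) and ADAR (right) in each library (points) by group label, with the group mean as a line, on a log axis. MYC is high in the 2 libraries labelled MYC, at 6578 and 6606 CPM, and ADAR in the libraries labelled MYC_Zab and WT.

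The libraries labelled MYC_Zab stood close to those labelled WT in other genes too. Between these groups 69 of 11985 genes tested passed (0.576%), 16 higher (0.134%) and 53 lower (0.442%). The largest of these changes was in CENPE, a kinesin of mitosis named after its value was seen, with a log2 change of 1.88 for MYC_Zab over WT. The chi-square per gene between libraries was 2.657 to 2.761 for MYC_Zab with WT, and 38.82 to 40.6 for MYC_Zab with MYC. Between replicates it was 2.033 in the MYC_Zab pair and 2.003 in the MYC pair, where a value near 2 is what counting alone gives when reads come in twos. The 4 libraries compared held between 3633889 and 4072059 recovered coding reads.

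Among mesenchymal markers VIM had 8510 and 8644 reads in the libraries labelled MYC_Zab and 6989 and 7396 in those labelled MYC, and SPARC and COL1A1 were also well read. Of the markers of bone-forming cells, SP7 was at 0 in all 8 libraries, and BGLAP and ALPL at 8 reads or fewer. Among markers of other cell types PTPRC, the pan-leukocyte marker, had 4 reads or fewer in any library, and the endothelial marker PECAM1 2 or fewer, while the endothelial factor ERG had 45 and 31 reads in the libraries labelled MYC_Zab and 71 and 48 in those labelled MYC. The 8 neuronal markers summed to 90.1 and 92.3 CPM in the libraries labelled MYC_Zab and 72.3 and 72.5 CPM in those labelled MYC, most of it TUBB3. The summed level of 10 leukocyte markers was 33.7 and 34.8 CPM in the libraries labelled MYC_Zab and 13.4 and 11.4 CPM in those labelled MYC, most of it CD68, a lysosomal protein. The 11 epithelial markers summed to 1269 and 1290 CPM in the libraries labelled MYC_Zab and 867.4 and 908.2 CPM in those labelled MYC, nearly all of it KRT8 and KRT18. Their part in the results was not tested. In bulk libraries like these, fewer cells of a type and less RNA per cell cannot be told apart.

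Newly made RNA differed widely between the groups. At a Benjamini-Hochberg adjusted p under 0.05 in limma, 5341 of 11985 genes passed (44.6%), 2642 of them higher in the libraries labelled MYC_Zab (22.0%) and 2699 lower (22.5%). With a change of at least 2-fold as well, 1237 genes were higher (10.3%) and 706 lower (5.89%). With the WT pair and the MYC_Zab pair each counted as 1 sample, 3559 genes passed. The split depends on scaling: on the deposited scale, with no scaling per library, 1853 were higher and 4006 lower, since the median gene then shifted to -0.186 on the log2 scale, against 0.0281 in the scaled values. All log2 changes below are MYC_Zab over MYC on the log2(CPM + 1) scale, which understates the change of low genes, and are relative to that scaled median. "Rose" and "fell" are used of genes that passed.

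**Figure D2:**
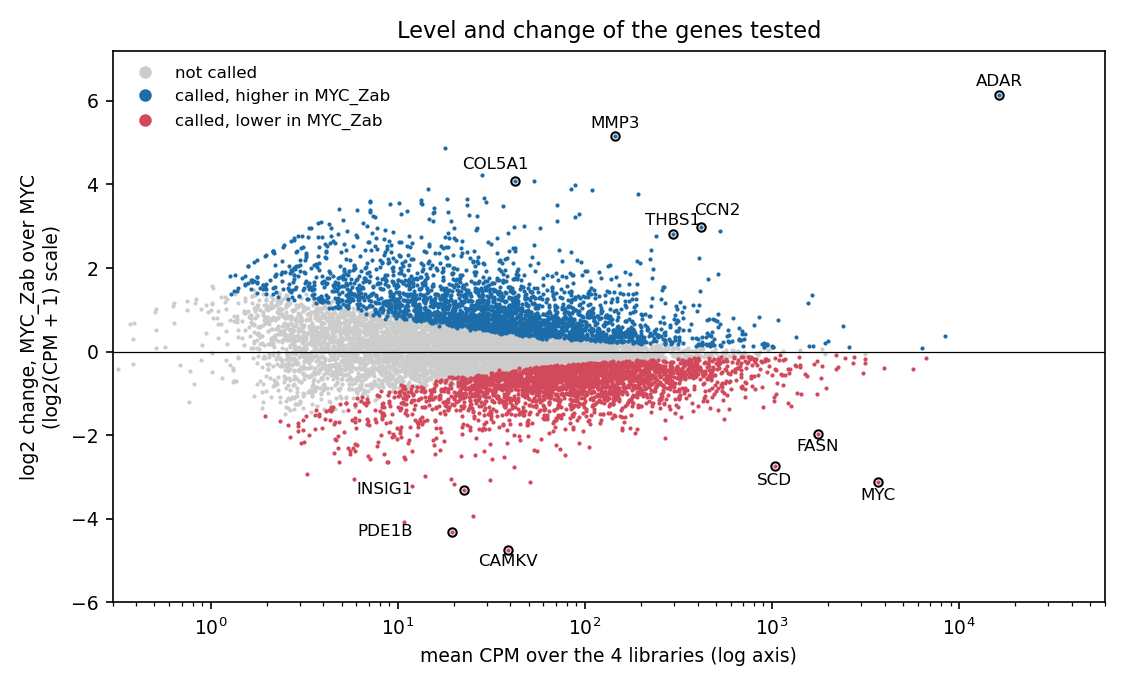
Mean CPM over the 4 libraries (log axis) against the log2 change of MYC_Zab over MYC for the genes tested, coloured by call, with 11 genes named. ADAR and MMP3 lie near the top with log2 changes of 6.15 and 5.16, and CAMKV at the bottom with -4.74.

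The change differed with the level of the gene. The 2328 genes over 100 CPM had a median log2 change of -0.222, and 51.3% of them fell while 20.2% rose. The 2942 genes from 5 to 20 CPM had a median of 0.241, with 7.61% lower and 23.2% higher. By length, genes spanning over 200 kb had a median of 0.242 (29.4% higher, 11.4% lower), and those under 5 kb a median of -0.0364 (20.4% higher, 24% lower). The lists below differ in level, and the part of that in their counts was not tested.

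The factors that pair with MAX moved in both directions. Of 18 genes of MYC, MAX and partner factors tested, 11 fell and 3 rose, with a median of -0.448. MAX itself fell to 146 and 162 CPM in the libraries labelled MYC_Zab, against 229 and 240 CPM in those labelled MYC. MYCL, a MYC relative, had 4.15 and 2.48 CPM in the libraries labelled MYC_Zab and 16.5 and 14.6 CPM in those labelled MYC. MXD1, which pairs with MAX and represses, rose to 21.8 and 15.1 CPM in the libraries labelled MYC_Zab, against 1.03 and 3.71 CPM in those labelled MYC, a log2 change of 2.63 ± 0.36 (SE). MXD4 also rose (1.35), while the repressors MNT (-0.83) and MXI1 (-1.54) fell. MXD4 and MXI1 were picked after their values were seen.

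Known MYC targets were mostly lower in the libraries labelled MYC_Zab. Of 68 tested, 55 fell and 3 rose, and the median was -0.597. NCL, the nucleolar protein nucleolin, had 1374 and 1369 CPM in the libraries labelled MYC_Zab and 2577 and 2475 CPM in those labelled MYC. ODC1, the rate-limiting enzyme of polyamine synthesis, had 653 and 649 CPM in the libraries labelled MYC_Zab and 1355 and 1417 CPM in those labelled MYC. The libraries labelled MYC_Zab were the lower ones in both genes. TFAP4, a transcription factor, fell by 1.66 on the log2 scale, and CAD, which starts pyrimidine synthesis, by 0.59. The exceptions were CTPS1, a CTP synthase, which rose by 0.81 (402 and 446 CPM in MYC_Zab, 232 and 250 CPM in MYC), HSPE1 (0.23) and, named after its value was seen, CBX3 (0.28). The calls of HSPE1 and CBX3 were lost on the deposited scale and without any 1 of the 4 libraries compared.

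Ribosome building showed the same direction. Of 113 ribosome biogenesis and nucleolar factors tested, 86 fell and 1 rose, UTP25 at 0.36 (named after its value was seen, and not called on the deposited scale or without MYC_Zab replicate 2 or MYC replicate 1), and the median was -0.498. The largest fall was in NOL9, a kinase that processes ribosomal RNA, with 67.7 and 66.5 CPM in the libraries labelled MYC_Zab and 256 and 243 CPM in those labelled MYC. RRP1B, a nucleolar protein, had 78.4 and 85.4 CPM in MYC_Zab and 316 and 276 CPM in MYC. NOLC1, a chaperone of nucleolar RNA-protein particles, fell by 1.36 on the log2 scale, TCOF1 (treacle) by 0.99, and FBL (fibrillarin, a ribosomal RNA methyltransferase) by 0.68. Every library labelled MYC_Zab lay below every library labelled MYC in these genes. That is no mark of this list, since the groups did not overlap in 5339 of all 5341 called genes. Nor did they overlap in 75.5% of all genes tested.

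The canonical E-box, CACGTG, which reads the same on both strands, was searched in the 300 bases from 250 before to 50 after the start of each gene in RefSeq (build GRCh38.p14). Of the genes tested, 9867 (82.3%) matched a promoter by symbol. The motif was in 14.3% of the promoters of genes that fell, 7.71% of those that rose and 9.92% of those not called, against 7.43% of all 27305 promoters in the table. It was in 36.5% of the 96 promoters found for ribosome biogenesis and 35.7% of the 56 for MYC targets. Other lists were mixed, against 10.4% of all genes tested. Of lists that leaned higher, it was in 26.1% of the 23 promoters of YAP targets and 18.8% of the 16 of matrix proteases. It was in 3.12% of the 32 of collagens and matrix glycoproteins and 4.35% of the 23 of NF-kB genes. Of lists that leaned lower, it was in 21.7% of the 23 of cholesterol synthesis. It was in 10.5% of the 57 of splicing factors and 0 of the 46 of histones. A match is a description of these letters, not a site. The 3 promoters shown are of genes with some of the largest falls in these lists among called members with the motif. They belong to SLC7A5 (a transporter of large neutral amino acids; minus strand, chr16:87869458-87869757), PPAT (the first committed enzyme of purine synthesis; minus strand, chr4:56435566-56435865) and MYBBP1A (a nucleolar protein; minus strand, chr17:4555335-4555634). Each runs 5′ to 3′ along the gene, with the E-box in capitals.
SLC7A5: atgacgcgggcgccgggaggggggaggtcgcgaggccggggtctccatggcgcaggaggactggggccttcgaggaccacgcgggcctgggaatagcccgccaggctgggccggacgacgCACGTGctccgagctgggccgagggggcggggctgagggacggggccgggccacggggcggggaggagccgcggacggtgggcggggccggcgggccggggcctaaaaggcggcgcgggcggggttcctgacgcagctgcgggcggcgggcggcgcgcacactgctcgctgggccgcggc
PPAT: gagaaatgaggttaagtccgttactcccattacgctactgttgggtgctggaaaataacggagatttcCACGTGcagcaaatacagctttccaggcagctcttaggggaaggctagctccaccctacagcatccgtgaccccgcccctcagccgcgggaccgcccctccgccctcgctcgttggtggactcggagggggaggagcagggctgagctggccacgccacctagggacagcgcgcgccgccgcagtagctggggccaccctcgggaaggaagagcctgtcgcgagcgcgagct
MYBBP1A: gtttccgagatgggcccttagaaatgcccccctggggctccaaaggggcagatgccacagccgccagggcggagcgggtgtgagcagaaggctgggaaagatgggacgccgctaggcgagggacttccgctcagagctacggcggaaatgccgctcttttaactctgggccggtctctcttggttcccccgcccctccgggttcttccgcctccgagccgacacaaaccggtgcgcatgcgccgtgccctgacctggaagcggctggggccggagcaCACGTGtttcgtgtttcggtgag
The E-box starts 130 bases before the gene's start in SLC7A5, 182 before it in PPAT and 27 after it in MYBBP1A. SLC7A5 had 748 and 716 CPM in the libraries labelled MYC_Zab and 1813 and 1785 CPM in those labelled MYC, a log2 change of -1.30 ± 0.045 (SE, adjusted p = 5.64e-19). PPAT had 69.5 and 67.3 CPM in MYC_Zab and 160 and 148 CPM in MYC. MYBBP1A had 131 and 114 CPM in MYC_Zab and 254 and 265 CPM in MYC. In all 3 genes the groups lay about as far apart, with log2 changes from -1.30 to -1.08.

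Genes of the translation machinery split by class. RNA polymerase I and III, which make ribosomal and transfer RNA, had 17 of 34 subunits and factors lower and 0 higher in limma, with a median of -0.357. The largest fall was in POLR3G, a polymerase III subunit, at 29.1 and 33.8 CPM in the libraries labelled MYC_Zab and 85.2 and 83.1 CPM in those labelled MYC. Mitochondrial ribosomal proteins had 37 of 78 lower and 4 higher (median -0.354), among them MRPS34 at 76.6 and 70.7 CPM in MYC_Zab and 224 and 210 CPM in MYC. Translation factors had 31 of 49 lower and 8 higher (median -0.277), with EIF3B, an initiation factor subunit, falling by 0.86 on the log2 scale. The 84 cytosolic ribosomal proteins did not lean either way, with 27 higher and 27 lower and a median of -0.0301, which became 0.0608 with library totals. RPS27 rose by 0.67 and RPL3 fell by 0.33, and the largest rise was in RPS27L, a p53-regulated relative of RPS27 (170 and 172 CPM in MYC_Zab, 97.6 and 86.5 CPM in MYC). Many of these genes have processed pseudogenes that could take or give reads. Aminoacyl-tRNA synthetases stood near the background, with 7 of 40 higher and 10 lower.

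Splicing and nuclear transport leaned lower. Of 63 splicing factors, 47 fell and 4 rose, and the median was -0.443. SNRPA, a protein of the U1 particle, had 91.9 and 96.3 CPM in the libraries labelled MYC_Zab and 186 and 187 CPM in those labelled MYC. SRSF1, an SR protein, fell by 0.43 on the log2 scale and HNRNPA1 by 0.22. The 4 that rose, named after their values were seen, were CLK1 (0.80), RBM5 (0.71), SRSF5 (0.58) and SNRPD2 (0.26). CLK1 and SNRPD2 did not pass on the deposited scale, nor CLK1 without any 1 of the 4 libraries or SNRPD2 without MYC_Zab replicate 1 or MYC replicate 2. Of 50 nuclear pore and transport genes, 30 fell and 3 rose (median -0.336). The exporter XPO1 fell by 0.62 and the importin KPNA3 by 1.24.

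Enzymes that feed growth were lower in most groups. In purine and pyrimidine synthesis 19 of 36 fell and 2 rose (median -0.372). IMPDH1, which commits purines to guanine nucleotides, had 83.3 and 77.9 CPM in the libraries labelled MYC_Zab and 188 and 197 CPM in those labelled MYC. The risers were CTPS1 and UPP1 (0.99), a uridine-degrading enzyme named after its value was seen. In polyamine metabolism the makers ODC1, AMD1 (-0.72) and SRM (-0.36) fell, while SMOX (0.95), which oxidises spermine, rose, as did ARG2, an arginase (1.17). AMD1 and SMOX were named after their values were seen. Of 22 amino acid transporters, 11 fell and 3 rose (median -0.400), with the glutamate transporter SLC1A3 at 8.04 and 8.94 CPM in MYC_Zab and 52.1 and 58.4 CPM in MYC. Of 25 serine, one-carbon and asparagine genes, 13 fell and 4 rose, PHGDH and MTHFD2 by 0.45 and 0.50 on the log2 scale among the fallers.

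Glycolysis had 17 of 26 genes lower and 2 higher, with a median of -0.364. SLC16A1, the lactate transporter MCT1, fell most, to 128 and 131 CPM in the libraries labelled MYC_Zab, against 418 and 389 CPM in those labelled MYC. HK2, the hexokinase that starts the pathway, and LDHA, which makes lactate, fell by 0.60 and 0.59 on the log2 scale. The glucose transporter SLC2A3 rose by 1.39. The hypoxia list was mixed, with 7 of 23 higher (30.4%) and 3 lower (13%), against 22.0% and 22.5% of all genes tested. EPAS1, the HIF2α subunit, rose by 1.64, and DDIT4, an inhibitor of mTOR signalling that amino acid stress also induces, fell by 2.07. Nuclear-encoded oxidative phosphorylation subunits had 14 of 80 higher and 16 lower, near the background (median -0.0247, and 0.0641 with library totals).

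Sterol and fatty acid synthesis held some of the largest falls among well-read genes. Of 30 genes of cholesterol synthesis and its regulators, 20 fell and 1 rose, with a median of -0.837. INSIG1, the endoplasmic reticulum protein that holds back the sterol sensor, had 3.63 and 2.98 CPM in the libraries labelled MYC_Zab and 42.6 and 40.6 CPM in those labelled MYC, a log2 change of -3.31 ± 0.34 (SE). DHCR7, a late enzyme of the pathway, had 68.8 and 83.4 CPM in MYC_Zab and 287 and 298 CPM in MYC. LSS, which closes the sterol rings, fell by 1.86 on the log2 scale. The riser was NPC1, which exports cholesterol from lysosomes (1.31). In fatty acid synthesis 13 of 23 fell and 2 rose (median -0.413). SCD, the stearoyl-CoA desaturase, had 265 and 273 CPM in MYC_Zab and 1784 and 1820 CPM in MYC, 6.70-fold higher in MYC. FASN, fatty acid synthase, had 706 and 717 CPM in MYC_Zab and 2737 and 2882 CPM in MYC, and ACACA, which makes its substrate, fell by 1.38 on the log2 scale.

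**Figure D3:**
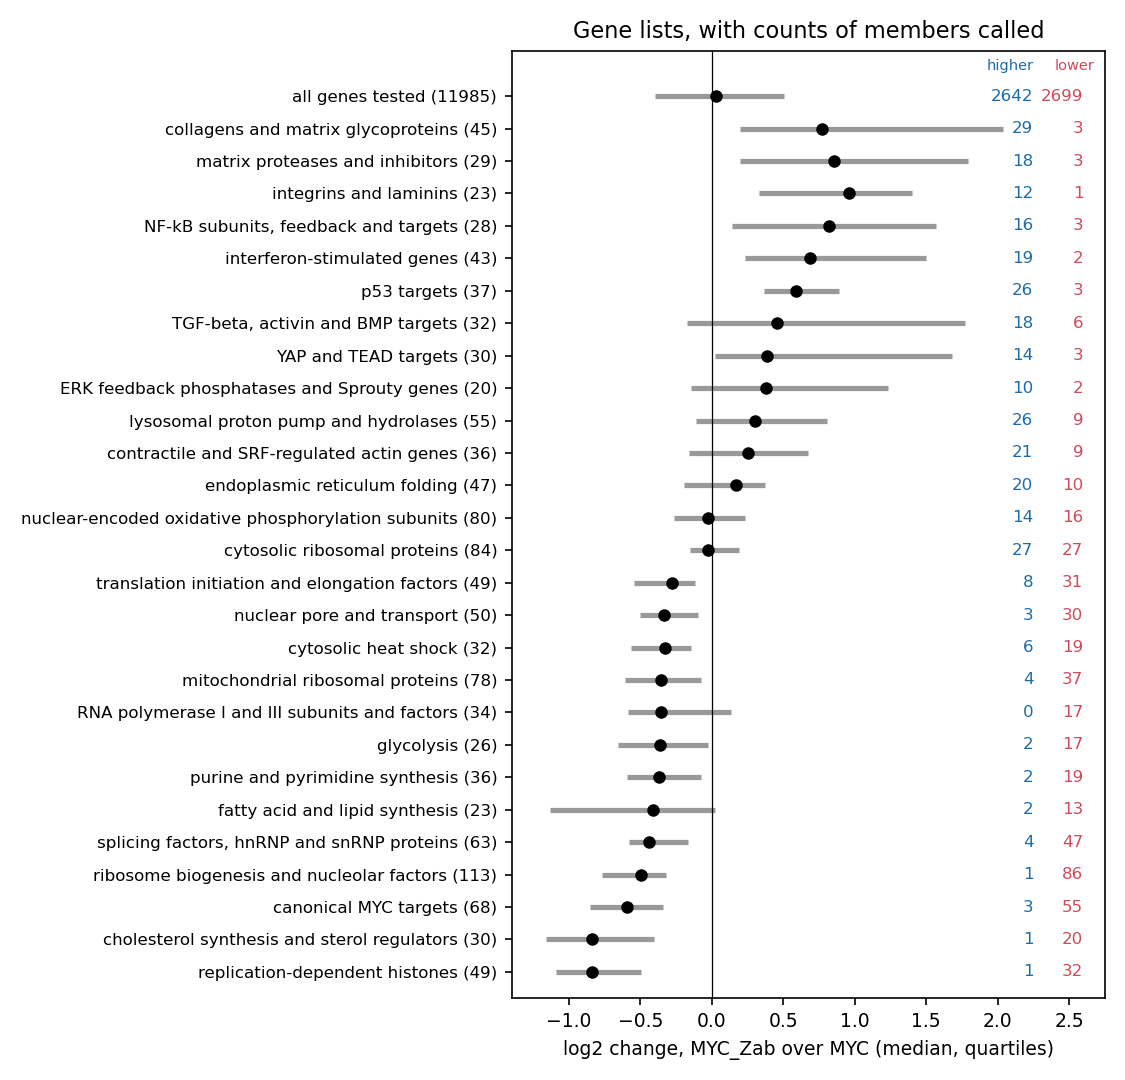
Median log2 change of MYC_Zab over MYC (points) with quartiles (bars) for 27 gene lists and for all genes tested, with the number of members tested in brackets and the numbers called higher and lower at the right. Histones and cholesterol synthesis lie lowest, with medians of -0.841 and -0.837, and integrins and laminins lie at 0.963.

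Histones and cell cycle genes differed in extent. Replication-dependent histones, which are made in S phase without poly(A) tails, had 32 of 49 genes lower and 1 higher, with a median of -0.841. H3C2 had 526 and 499 CPM in the libraries labelled MYC_Zab and 1240 and 1325 CPM in those labelled MYC, and the linker histone H1-4 918 and 976 CPM in MYC_Zab and 1882 and 1945 CPM in MYC. These genes have near-identical copies, so single members are uncertain. Of 57 replication genes 20 fell and 4 rose (median -0.177), with the helicase subunit MCM4 at -0.98. Of 52 mitosis genes 20 fell and 8 rose (median -0.130), with BIRC5 (survivin) at -1.29 and the kinesin KIF18A at 1.23. The cyclins CCND1 and CCND2 fell by 1.13 and 1.22 on the log2 scale, and SKP2, which marks the cell cycle inhibitor p27 for destruction, by 1.48. FACT was lower in both subunits: SUPT16H had 237 and 238 CPM in MYC_Zab and 291 and 307 CPM in MYC, and SSRP1 had 511 and 513 CPM in MYC_Zab and 718 and 696 CPM in MYC. Of 33 histone chaperones with FACT, 15 fell and 5 rose. Of 11 topoisomerases and their repair enzymes 2 fell (18.2%) and 1 rose (9.09%), against 22.5% and 22.0% of all genes tested.

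Targets of p53 were mostly higher. Of 37 tested, 26 rose and 3 fell, and the median was 0.586. CDKN1A, the cell cycle inhibitor p21, had 391 and 389 CPM in the libraries labelled MYC_Zab and 215 and 210 CPM in those labelled MYC. TP53I3, a quinone oxidoreductase, had 127 and 121 CPM in MYC_Zab and 21.2 and 22.7 CPM in MYC, a log2 change of 2.44 ± 0.13 (SE). GADD45A rose by 1.93 and MDM2, which degrades p53, by 0.39, a call lost on the deposited scale. The growth factor GDF15, which amino acid stress also induces, fell by 1.64 on the log2 scale.

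Genes of the extracellular matrix and its remodelling were mostly higher. Of 45 collagens and matrix glycoproteins, 29 rose and 3 fell, with a median of 0.771. COL5A1, a fibrillar collagen chain, had 87.2 and 74.5 CPM in the libraries labelled MYC_Zab and 4.91 and 2.97 CPM in those labelled MYC. FN1, fibronectin, had 434 and 408 CPM in MYC_Zab and 58.1 and 63.5 CPM in MYC, and thrombospondin THBS1 526 and 512 CPM in MYC_Zab and 70.2 and 74.4 CPM in MYC. The groups were far apart in all 3 genes. COL1A1, the main bone collagen chain, rose by less, 0.71. The 3 that fell, named after their values were seen, were CCN3 (-2.10), LOXL3 (-1.18) and COL16A1 (-0.83). LOXL3 and COL16A1 lost their call without MYC_Zab replicate 2 or MYC replicate 2, and LOXL3 also without MYC replicate 1.

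Matrix proteases and inhibitors had 18 of 29 higher and 3 lower, with a median of 0.856. MMP3, stromelysin, had a large rise: 283 CPM in both libraries labelled MYC_Zab, against 5.68 and 8.41 CPM in those labelled MYC, a log2 change of 5.16 ± 0.14 (SE, adjusted p = 1.19e-21). TIMP3, an inhibitor of metalloproteases, went the other way, with 9.86 and 10.7 CPM in MYC_Zab and 65.6 and 61.3 CPM in MYC. Of 23 integrins and laminins 12 rose and 1 fell (median 0.963, and 0.591 for the median of integrins and laminins with a pseudocount of 4). The laminin chain LAMB3 had 368 and 347 CPM in MYC_Zab and 28.9 and 22.3 CPM in MYC, and the collagen receptor subunit ITGA2 125 and 131 CPM in MYC_Zab and 16.5 and 11.4 CPM in MYC.

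**Figure D4:**
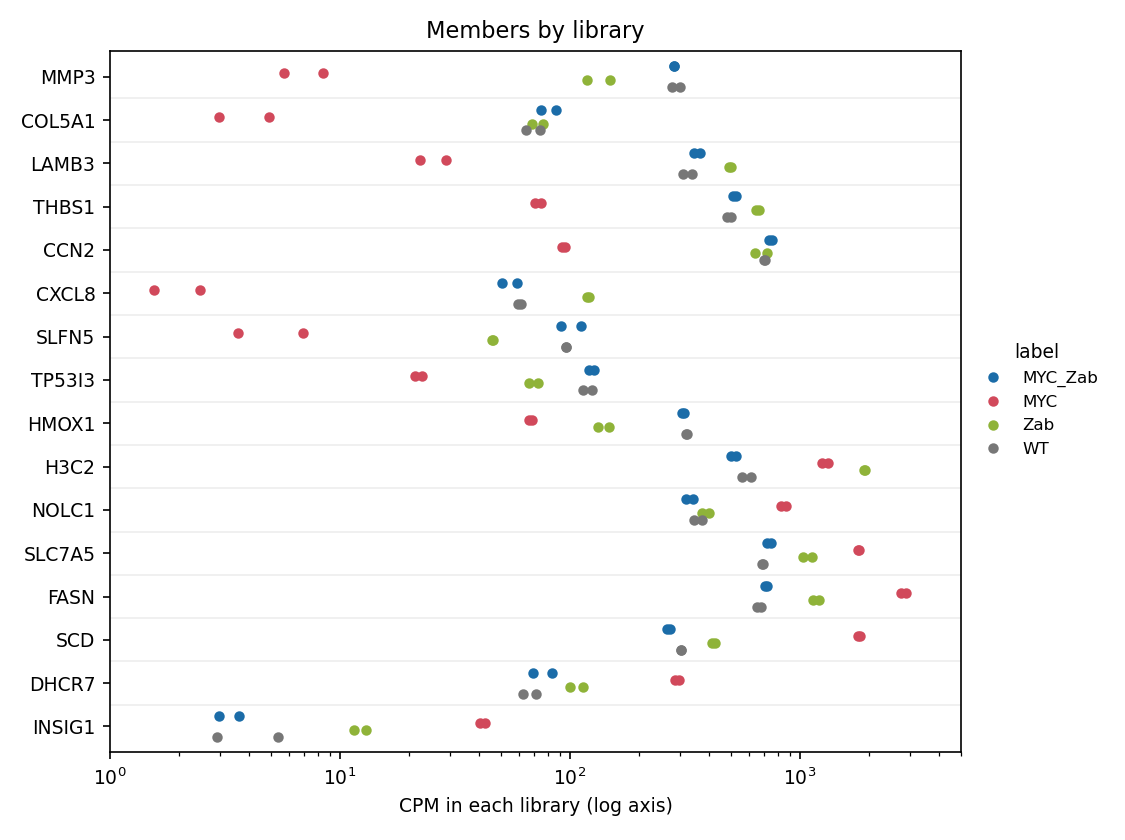
CPM in each of the 8 libraries (points, log axis) for 16 genes, coloured by group label. From MMP3 to HMOX1 the libraries labelled MYC lie left of all others, and from NOLC1 to INSIG1 right of all others. In H3C2 the libraries labelled Zab lie highest.

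Genes read out from signalling pathways that control the matrix were higher too. Of 30 YAP and TEAD targets 14 rose and 3 fell (median 0.385). CCN2, a secreted matrix protein, had 753 and 735 CPM in the libraries labelled MYC_Zab and 95.3 and 92.5 CPM in those labelled MYC. ANKRD1 had 165 and 171 CPM in MYC_Zab and 7.74 and 11.9 CPM in MYC. CCN1 rose by 1.45, while TEAD4, a DNA-binding partner of YAP, fell by 0.61 on the log2 scale and was picked after its value was seen. Of 32 TGF-beta, activin and BMP targets 18 rose and 6 fell (median 0.459), with the activin subunit INHBA at 160 and 159 CPM in MYC_Zab and 8.26 and 11.4 CPM in MYC. Contractile and SRF-regulated actin genes had 21 of 36 higher and 9 lower. ACTA2, smooth muscle actin, rose by 2.16 and MYL6 by 1.90, while SRF, the factor that regulates them, fell by 1.22 on the log2 scale and was picked after its value was seen.

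Inflammatory genes rose in the same libraries. Of 28 NF-kB subunits, feedback genes and targets 16 rose and 3 fell (median 0.821). NFKBIA, the inhibitor that NF-kB itself induces, had 78.9 and 67.3 CPM in the libraries labelled MYC_Zab and 33.8 and 30.9 CPM in those labelled MYC. TNFAIP3, another feedback inhibitor, had 36.6 and 35.2 CPM in MYC_Zab and 3.87 and 5.93 CPM in MYC. Of 18 cytokines tested 7 rose and 1 fell (median 0.780). For the median of chemokines, interleukins and secreted cytokines, a pseudocount of 4 gave 0.380, and genes counted over the same transcript 1.19. The chemokine CXCL8 had 50.3 and 58.6 CPM in MYC_Zab and 1.55 and 2.47 CPM in MYC, IL11 rose by 2.95 and LIF by 1.37. IL1A was read 110 times in the MYC_Zab pair and 2 times in the MYC pair, a ratio of 55.3 with a 95% counting interval from 14.9 to 462. This interval, like the others on reads below, takes reads as independent and is too narrow, because reads mostly come in twos. IL6 had 4 and 1 reads in MYC_Zab and 0 in both MYC libraries and was not tested.

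Growth factor feedback genes leaned higher, and AP-1 and immediate early genes were mixed. Of 20 ERK feedback genes 10 rose and 2 fell (median 0.379), with the phosphatase DUSP10 at 11.4 and 17.4 CPM in the libraries labelled MYC_Zab and 0.516 and 1.48 CPM in those labelled MYC. Of 40 AP-1 and immediate early genes 14 rose (35%) and 9 fell (22.5%), against 22.0% and 22.5% of all genes tested. The share that fell was thus that of the background. The median of 0.0695 turned to -0.151 on the deposited scale. JUN had 199 and 192 CPM in MYC_Zab and 97.6 and 97.9 CPM in MYC, and FOSL1 and FOSL2 rose by 1.39 and 1.59. FOS fell by 0.99 on the log2 scale and EGR1 by 0.29, and both lost their call without MYC replicate 2, EGR1 also without MYC_Zab replicate 1. JUND (-1.19) and ARC (-1.28) also fell and were picked after their values were seen.

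The AP-1 site TGACTCA, searched on both strands in the same promoters, was in 6.06% of those of genes that rose at least 2-fold, 2.63% of those that fell at least 2-fold, 4.15% of all that rose, 2.89% of all tested and 4.92% of all promoters in the table. The 2 promoters shown have the largest rise among called genes with the site, which is in capitals. They belong to CXCL8 (plus strand, chr4:73740319-73740618) and TRIML2, a tripartite motif family member (minus strand, chr4:188109554-188109853).
CXCL8: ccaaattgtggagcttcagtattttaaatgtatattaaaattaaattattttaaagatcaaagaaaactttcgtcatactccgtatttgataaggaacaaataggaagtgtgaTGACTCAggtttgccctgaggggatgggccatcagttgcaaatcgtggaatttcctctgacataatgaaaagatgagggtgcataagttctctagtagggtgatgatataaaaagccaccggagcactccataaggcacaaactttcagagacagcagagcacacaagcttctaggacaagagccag
TRIML2: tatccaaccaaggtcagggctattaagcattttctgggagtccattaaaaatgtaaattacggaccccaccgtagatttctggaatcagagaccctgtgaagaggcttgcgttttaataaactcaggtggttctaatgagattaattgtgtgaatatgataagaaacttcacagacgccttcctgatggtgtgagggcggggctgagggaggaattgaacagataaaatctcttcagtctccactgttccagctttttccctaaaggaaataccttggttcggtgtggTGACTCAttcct
The site starts 137 bases before the gene's start in CXCL8 and 38 after it in TRIML2. TRIML2 had 34.3 and 35.0 CPM in the libraries labelled MYC_Zab and 1.03 and 2.97 CPM in those labelled MYC. The TEAD motif GGAATG, searched on both strands, was in 34.8% of 23 promoters of YAP targets, 12.9% of the promoters of genes that rose at least 2-fold, 6.38% of those that fell at least 2-fold, 10.7% of all tested and 14% of all promoters in the table.

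Interferon-stimulated genes rose in part. Of 43 tested 19 rose and 2 fell (median 0.686). SLFN5 had 111 and 91.3 CPM in the libraries labelled MYC_Zab and 3.61 and 6.92 CPM in those labelled MYC. STAT2, a subunit of the interferon-activated factor, had 68.0 and 65.8 CPM in MYC_Zab and 21.9 and 23.7 CPM in MYC, and GBP3 rose by 3.08. ISG15, a classic reporter of the response, did not pass, with 10.9 and 6.45 CPM in MYC_Zab and 8.78 and 4.45 CPM in MYC. Among 27 genes that sense or edit Z-form or double-stranded RNA, 5 rose (18.5%) and 7 fell (25.9%), and their median turned negative on the deposited scale. Beside ADAR, those that rose included DDX58 (the RNA sensor RIG-I, 1.73), OAS3 (1.64) and RIPK1 (0.85), the last named after its value was seen. Those that fell included DHX9, an RNA helicase (-0.61). ZBP1, the other human protein with Zα domains, had 2 and 4 reads in MYC_Zab and 0 in both MYC libraries and was not tested. Of 21 genes of MHC class I presentation 9 rose and 3 fell.

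Protein folding differed by compartment. Cytosolic heat shock genes had 19 of 32 lower and 6 higher (median -0.327). FKBP4, an HSP90 co-chaperone, had 637 and 618 CPM in the libraries labelled MYC_Zab and 1428 and 1405 CPM in those labelled MYC, and HSPA1B fell by 1.82 on the log2 scale, though its reads can be mistaken for those of HSPA1A. Chaperonins had 14 of 23 lower and 1 higher. HSPD1, the mitochondrial chaperonin, fell by 0.37 on the log2 scale, while HSPE1, its lid, which is transcribed from the same promoter region in the opposite direction, rose by 0.23. In the endoplasmic reticulum 20 of 47 folding genes rose (42.6%) and 10 fell (21.3%), against 22.0% and 22.5% of all genes tested. The median of 0.172 turned to -0.0474 on the deposited scale. The rises were small, none reaching 2-fold, and the falls took in HSPA5, TXNDC5 and CANX. HSPA5, the chaperone BiP, had 314 and 330 CPM in MYC_Zab and 498 and 508 CPM in MYC, and the lectin chaperone calnexin, CANX, 418 and 426 CPM in MYC_Zab and 800 and 762 CPM in MYC. Of the genes of the amino acid response, 14 of 29 fell and 7 rose: TRIB3 fell by 0.87 on the log2 scale, and PPP1R15A, which restores translation after stress, rose by 2.15.

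The ER stress element, CCAAT and CCACG with 9 bases between them, searched on both strands, was in 6 of 44 promoters of the endoplasmic reticulum list (13.6%) and 14 of all 9867 tested (0.142%). Of those 14 genes 4 rose, 2 fell and 8 were not called. The promoters of CANX (plus strand, chr5:179698679-179698978) and HSPA5 (minus strand, chr9:125241294-125241593) are shown because they carry it and had the largest changes among called members that do. The element is in capitals.
CANX: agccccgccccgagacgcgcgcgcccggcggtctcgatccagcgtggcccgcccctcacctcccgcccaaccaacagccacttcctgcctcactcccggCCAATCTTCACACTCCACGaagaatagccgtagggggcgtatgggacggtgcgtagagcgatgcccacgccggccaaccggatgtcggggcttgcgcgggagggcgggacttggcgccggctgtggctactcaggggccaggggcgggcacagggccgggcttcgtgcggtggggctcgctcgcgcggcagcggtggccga
HSPA5: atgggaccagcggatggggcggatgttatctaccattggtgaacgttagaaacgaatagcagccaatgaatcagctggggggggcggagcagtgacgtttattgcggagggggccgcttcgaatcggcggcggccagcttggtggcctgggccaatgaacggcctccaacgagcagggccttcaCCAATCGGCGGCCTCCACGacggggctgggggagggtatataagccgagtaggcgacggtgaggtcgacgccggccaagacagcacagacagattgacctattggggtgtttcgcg
It starts 151 bases before the gene's start in CANX and 66 before it in HSPA5. Both genes fell here, and both stood higher in the libraries labelled Zab, HSPA5 by far the more, as given below.

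Iron storage and oxidative defence leaned lower as a list, with 7 of 37 genes higher and 16 lower (median -0.183), but held 2 well-read genes that rose. FTH1, the ferritin heavy chain, had 2127 and 2175 CPM in the libraries labelled MYC_Zab and 974 and 948 CPM in those labelled MYC. HMOX1, heme oxygenase, had 312 and 308 CPM in MYC_Zab and 66.6 and 68.5 CPM in MYC. TFRC, the transferrin receptor, fell by 1.04 on the log2 scale and was picked after its value was seen. Of 55 lysosomal genes 26 rose and 9 fell (median 0.304), with the cholesterol carrier NPC2 at 1.81 and the membrane protein LAMP1 at -0.53.

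Several of the genes with the largest falls are known from neurons. The list of neural genes as a whole had 10 of 33 higher (30.3%) and 8 lower (24.2%), with a median of 0.436. Of all genes tested 22.0% were higher and 22.5% lower, so the share that fell was near the background. CAMKV, a kinase-like protein of synapses, had 1.56 and 2.23 CPM in the libraries labelled MYC_Zab and 72.3 and 79.1 CPM in those labelled MYC, a log2 change of -4.74 ± 0.45 (SE, adjusted p = 1.32e-09). PDE1B, a calmodulin-dependent phosphodiesterase, had 1.56 and 0.496 CPM in MYC_Zab and 32.5 and 43.5 CPM in MYC. The GABA receptor subunit GABRA5 fell by 3.08 on the log2 scale. The receptor gene OPRL1 was read 3 times in the MYC_Zab pair and 168 times in the MYC pair, 55.7-fold higher in MYC with a 95% counting interval from 18.8 to 273. SYP, a synaptic vesicle protein, went the other way, with 17.6 and 21.3 CPM in MYC_Zab and 1.03 and 0.495 CPM in MYC. Among the other genes with the largest rises, ESM1, a secreted proteoglycan, was read 278 times in the MYC_Zab pair and 2 times in the MYC pair (ratio 140, interval from 38.3 to 1160), and NAV3 rose by 3.88. Other large falls were in GPRC5B (-3.22), PDZRN3 (-3.16), KCTD12 (-3.13), SEMA3G (-3.05) and DAAM2 (-3.04), and SEMA3G missed the threshold in DESeq2.

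Against the background of 22.0% higher and 22.5% lower, proteasome subunits had 12 of 46 higher and 10 lower, DNA break repair genes 7 of 49 higher and 11 lower, and cohesin and condensin genes 4 of 28 higher and 8 lower. Of the 392 zinc finger ZNF genes tested, 28 were higher (7.14%) and 42 lower (10.7%), at a median level of 15.4 CPM. RNA polymerase II and elongation genes had 5 of 46 higher (10.9%) and 16 lower (34.8%). POLR2A, the polymerase's largest subunit, had 215 and 210 CPM in the libraries labelled MYC_Zab and 352 and 341 CPM in those labelled MYC.

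Whether the difference was the same without MYC in the label was tested as the interaction, MYC_Zab over MYC minus Zab over WT, in which the 2 differences share no library. It passed in 6384 of 11985 genes (53.3%), 3508 higher (29.3%) and 2876 lower (24.0%). That split also depends on scaling, with 5044 higher and 1837 lower on the deposited scale and 4590 higher and 2134 lower with library totals. The Zab over WT difference itself passed in 5939 genes (49.6%), with 2696 higher (22.5%) and 3243 lower (27.1%). Of all genes 3052 genes passed in both, which is 57.1% of the calls in MYC_Zab over MYC and 51.4% of those in Zab over WT. Of these 3052, 2019 had opposite signs. Few genes passed between MYC_Zab and WT (69 of 11985). An opposite sign thus mostly means that the libraries labelled MYC and Zab lay on the same side of those labelled MYC_Zab and WT. The libraries labelled Zab held about 6.55 coding reads per 100 tags, against 13.1 in WT, 13.5 in MYC_Zab and 13.7 in MYC, and the part of that gap in the interaction was not tested.

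The histones that fell in MYC_Zab over MYC stood the other way without MYC in the label: in Zab over WT 41 of the 49 were higher and 0 lower in limma, and the interaction was lower in 40 and higher in 0, with a median of -2.31. H3C2 averaged 513 CPM in MYC_Zab and 1282 CPM in MYC, and 1903 CPM in Zab and 588 CPM in WT. H3C2 was thus higher in MYC and in Zab than in MYC_Zab or WT. Endoplasmic reticulum folding genes were higher in 31 of 47 and lower in 5 in Zab over WT, and the interaction was lower in 29 and higher in 2. HSPA5 averaged 322 CPM in MYC_Zab and 503 CPM in MYC, but 3957 CPM in Zab and 342 CPM in WT, an interaction of -4.17 ± 0.068 (SE). CANX averaged 1146 CPM in Zab and 494 CPM in WT. SDF2L1, a partner of HSPA5, had an interaction of -4.19.

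Targets of p53 were the reverse: in Zab over WT 23 of the 37 were lower and 7 higher, and the interaction was higher in 29 and lower in 4. MDM2 averaged 279 CPM in MYC_Zab and 212 CPM in MYC, and 57.5 CPM in Zab and 245 CPM in WT. Of the matrix genes with the largest rises in MYC_Zab over MYC, COL5A1 averaged 72.2 CPM in Zab and 68.9 CPM in WT, and LAMB3 495 CPM in Zab and 325 CPM in WT. MMP3 averaged 134 CPM in Zab and 289 CPM in WT, an interaction of 6.27 ± 0.20 (SE).

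**Figure D5:**
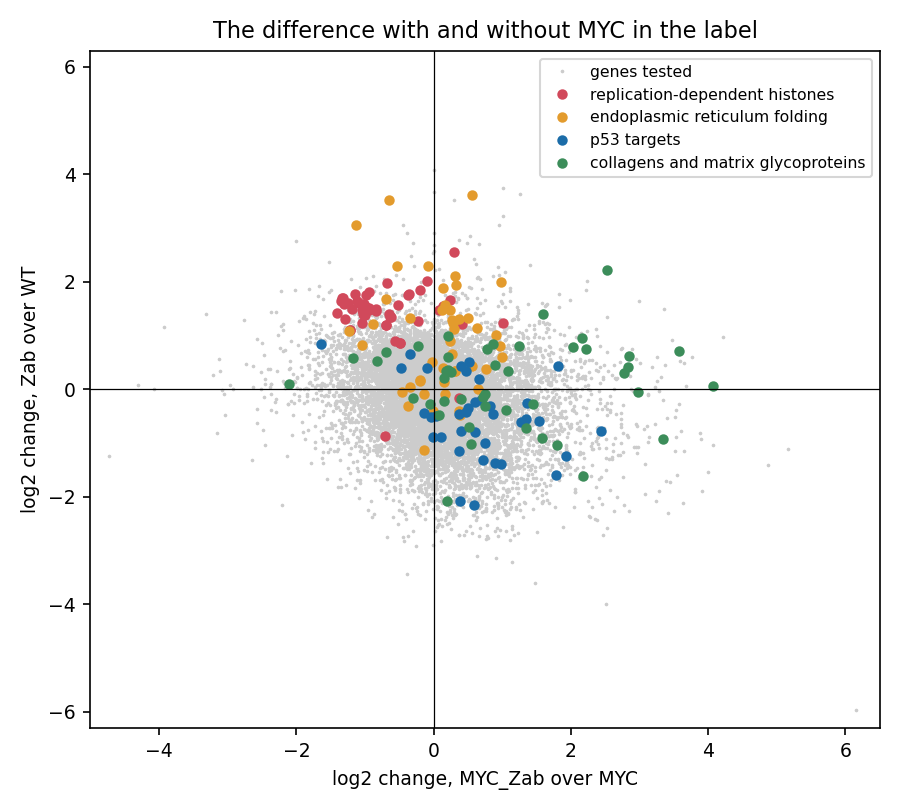
Log2 change of MYC_Zab over MYC against the log2 change of Zab over WT for the genes tested (grey), with 4 gene lists coloured. Histones lie at the upper left, endoplasmic reticulum folding genes mostly above 0 on the Zab over WT axis, and p53 targets mostly at the lower right. ADAR is the point at 6.15 and -5.96.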

How the data were processed

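TT-seq was run on 8 U2OS libraries, 4 groups of 2 by genotype label. The deposited values are a signal per gene: per the file headers, reads were counted with HOMER over exons of hg19 RefSeq coding genes on the opposite strand, with 1 transcript kept per gene symbol. Per the submitters' processing notes, bedtools 2.29.2, SAMtools 1.11, STAR and Trim Galore 0.6.6 were used, with builds hg19 and dm6, in roles that are not stated. The deposited signal is whole reads multiplied by 1 number for each library. What set that number is not stated in the sources here, though the file headers name a spike-in. The deposited values of a library summed to a mean of 775934 in MYC_Zab and 964447 in MYC. Scaling to CPM does not keep that difference, and what it stands for was not tested. Dividing it by each library's step gave whole reads for at least 99.96% of values (tolerance 0.02), and 77.2% to 82.7% of the values from 1 to 20 reads were even. Recovered reads per library ran from 1839960 to 4072059, which limits low genes most.

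The signal was scaled to CPM with TMM (edgeR 4.0.16, R 4.3.3). Genes kept by filterByExpr (minimum 10 recovered reads), 11985 of 19414, were tested on log2(CPM + 1) with limma 3.58.1 (trend), with all 8 libraries, a group term and 4 residual degrees of freedom, and Benjamini-Hochberg adjustment over all genes tested. Every adjusted p in the text comes from this fit. An exact permutation test of 2 against 2 libraries cannot go below p = 0.333. The fit was tested on simulated data of 11750 genes, with 50 changed at each size and a spread near counting alone (dispersion 9.77e-05). It called 34% of genes with a true log2 change of -0.5 and 30% of those with 0.5. At -1 and 1 it called 72% and 90%, and of unchanged genes 0%. These shares do not carry over to the data, where 44.6% of genes passed and the adjusted cutoff was therefore less strict. The 0% does not cover spread between cultures. A gene that was not called can still differ. Ratios for genes with 3 reads or fewer in a group have 95% intervals over the group's reads, which concern counting error only. They take each read as independent. Because reads mostly come in twos, these intervals are too narrow even for counting error.

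The members and the 60 gene lists were chosen with earlier results of these data known. Named genes are the 12 largest rises and falls among called genes of at least 5 CPM whose groups did not overlap, the 6 largest each way in the interaction, anchor genes of the lists, and of each list the 3 called members with the smallest p and the 3 with the largest change. Some genes under this rule are not reported here. Others are said to have been picked after their values were seen. The alternatives were other scalings, pseudocounts and filters, edgeR and DESeq2 1.42.0 on recovered reads, a replicate block, leaving out each library, averaging the WT and MYC_Zab pairs, a fit of 4 libraries, and genes counted over 1 transcript in all 4.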

Additional observations from a re-analysis of the deposited data

Results flagged for a closer look

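The difference between MYC_Zab and MYC was not the same as the difference between Zab and WT in 6384 of 11985 genes, by the interaction in limma at an adjusted p under 0.05. Positive values mean that MYC_Zab over MYC was the higher of the differences on the log2 scale. They were 12.11 for ADAR, 6.501 for SAMD9, an interferon-stimulated gene, 6.295 for ESM1, 6.269 for MMP3, 5.805 for INHBA and 5.748 for CSMD3. The ESM1 value rests on 2 reads in the MYC pair and is no bound. Negative values included -4.772 for the heat shock gene HSPA6, -4.715 for INSIG1, -4.382 for PDE1B, -4.188 for SDF2L1 and -4.17 for HSPA5. The libraries labelled Zab held fewer coding reads per 100 tags than the other 6, and the part of that in these values was not tested.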

How the results depend on the processing

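The counts of calls kept within 1.5 times of those reported under most alternatives. For MYC_Zab over MYC, averaging the WT and MYC_Zab pairs gave 3559 calls (1607 higher). Testing only the 7680 genes counted over the same transcript in the 4 libraries gave 3597 calls. Of these 1610 were higher, 44.8% of calls against 49.5% in the main fit. For the interaction, 2270 were higher with averaged pairs, 2141 with the same transcript, and 1837 lower on the deposited scale. The median gene of the interaction was at 0.14 in the main fit and 0.029 with the same transcript. edgeR called 6062 genes and DESeq2 4825. Leaving out 1 library gave 4017 to 5979 calls, where the lone library left in a group is assumed to vary like the others. The replicate numbers did not pair the samples (correlations of deviations from -0.0215 to 0.00947), and the fit with the number as a replicate block called 5338 genes, and 6380 in the interaction.

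List medians turned sign in these cases, and the cause was not tested. With library totals they were 0.0608 for cytosolic ribosomal proteins, 0.0557 for tRNA synthetases, 0.0641 for oxidative phosphorylation and 0.0134 for ZNF genes. On the deposited scale they were -0.0474 for endoplasmic reticulum folding, -0.114 for unfolded protein sensors, -0.148 for topoisomerases, -0.0617 for double-stranded RNA sensors, -0.151 for AP-1 genes, -0.149 for the proteasome, -0.203 for DNA repair, -0.164 for mTOR regulators and -0.181 for cohesin. With at least 30 reads they were -0.113 for the RNA sensors, -0.00467 for AP-1 and -0.00583 for DNA repair. With the same transcript they were -0.126 for AP-1 and 0.089 for iron and oxidative defence. Besides these, 111 values of list medians moved by more than the spread between replicates without turning sign, most of them on the deposited scale or with library totals. A pseudocount of 4 gave 0.591 for the median of integrins and laminins and 0.380 for the median of chemokines, interleukins and secreted cytokines, and no filter gave -0.178 for the median of amino acid transporters. The median of ERK feedback phosphatases and Sprouty genes ran from 0.228 to 0.672 with 1 library left out. Leaving out 1 library gave -0.0328 to 0.201 for the median of AP-1 and immediate early genes, -0.0333 to 0.0344 for the median of DNA break repair and Fanconi genes, and -0.0536 to 0.0667 for the median of cohesin, condensin and SMC complexes. Of the values of single genes under all alternatives, 3049 kept their direction and side of the threshold, 49 kept their direction but lost the call, and 2 turned sign, neither of them called. These were ISG15, from -0.05407 to 0.7889 with 1 library left out, and TUBB3, at -0.09527 on the deposited scale. Depth limits genes of few reads such as ISG15.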
